A study of Mus musculus with 51 samples.

Results

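A set of 9 genes that act in spermatogonia or at the entry into meiosis was followed through meiotic prophase I by the ChIP-Seq peaks at their promoters. They were Stra8, Sohlh1, Sohlh2, Dmrt1, Dmrtb1, Kit, Zbtb16, Nanos2 and Nanos3, and they were taken by name, 9 of the 20722 protein-coding genes that GENCODE M21 places on mouse chromosomes 1 to 19. A gene was called in a list when a peak overlapped the window of 500 bp on either side of the 5′ end of any of its protein-coding transcripts by at least 1 bp. The width of its widest such peak, in bp, was the only size that the lists allowed.

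The nuclei came from whole testes of adult wild-type male C57Bl/6J mice, were fixed and were sorted by flow cytometry as nuclei of 4C DNA content that carried SCP3. Leptonema (LE) was sorted as STRA8-positive nuclei, and zygonema (ZY), early pachynema (EP), late pachynema (LP) and diplonema (DI) were separated in another sort by H1t and SCP1. The paper reports incomplete purity for every sorted population, with zygonema the least pure. The part of nuclei of other stages in the calls of a stage was not tested. No treatment or mutant allele was used, and whether the libraries of a stage came from separate animals is not given in the sources used here. Of 51 samples, 20 had a peak list: 10 for H3K4me3 with an EpiCypher antibody, from experiments 1 and 2 of all 5 stages, 5 for H3K4me2/3 with an Abcam antibody that also binds dimethylated H3K4, all from experiment 2, and 5 for H3K9ac, all from experiment 1. The H3K9ac samples carry H3K9ac in their titles, while their antibody field names H3K4me3 beside the catalogue number that another sample gives for H3K9ac.

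Trimethylation of lysine 4 on histone H3 marks the promoters of active or poised genes, and dimethylation spreads around them and also marks enhancers. In early prophase, the methyltransferase PRDM9 places H3K4me3 at recombination hotspots as well, and the lists hold both kinds of peak without telling them apart. In the male germ line, undifferentiated spermatogonia renew themselves or differentiate under retinoic acid into KIT-positive spermatogonia. These then replicate their DNA and enter leptonema. The paper places STRA8 in the cells from primitive spermatogonia up to leptonema.

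The lists held 4883 to 15699 peaks for H3K4me3, 17561 to 30943 for H3K4me2/3 and 516 to 16003 for H3K9ac, with no score or read count. The depth behind a call is therefore unknown, and a missing peak does not show that the mark was absent. Of 12 genes of early prophase, such as Sycp3, Hormad1 and Spo11, 11 were called for H3K4me3 in either leptonema library. No marker of macrophages, leukocytes, endothelium or smooth muscle (8 genes) was called in any H3K4me3 list, and of 6 Leydig cell markers only Insl3 was called, in diplonema of experiment 2. Of 8 Sertoli cell markers, Sox9, Wt1 and Gata4 were called in leptonema of experiment 2 and none in leptonema of experiment 1, with summed widths of 6086 bp and 0 bp. H3K4me2/3 was called at 4 of these 8 markers in leptonema and at 3, 1, 2 and 2 from zygonema to diplonema, with Gata4 called at all 5 stages. In the other 8 H3K4me3 lists that sum ran from 0 to 1221 bp, and the markers Amh, Fshr and Dhh of the same list had no peak in any of the 20 lists. Whether Sertoli cell nuclei were present in leptonema of experiment 2, and any part of them in its results, was not tested.

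The 9 promoters had H3K4me3 calls most often in leptonema, and H3K4me2/3 calls at more genes and in later stages too. Over all genes, likewise, the H3K4me3 share was highest in leptonema and the H3K4me2/3 share was the higher one at every stage. H3K4me2/3 and H3K9ac had 1 list per stage, so their calls and widths have no replicate check and no test. An H3K4me3 call in both libraries of a stage was held by 4 of the 9 genes at leptonema, where 38.1% of all genes had one. For zygonema the count was 1 (32.4% of all genes), for early pachynema 0 (24.9%), for late pachynema 1 (25.8%) and for diplonema 1 (28.6%). With a call in either library, the counts were 5, 3, 0, 1 and 1 of 9, beside 47%, 39.2%, 33.9%, 40.4% and 46.1% of all genes. The 4 genes of leptonema were Stra8, Sohlh2, Dmrt1 and Dmrtb1, the gene of zygonema was Sohlh2, and that of the last 2 stages was Dmrtb1. Under the other antibody, H3K4me2/3 was called at 7, 7, 5, 4 and 3 of the 9 genes from leptonema to diplonema, while the share over all genes ran from 64.7% through 59.4%, 53.7% and 55.4% to 53.3%. H3K9ac was called at 0, 4, 1, 0 and 0 of the 9 genes, beside 14.8%, 41.1%, 35.3%, 8.27% and 1.99% of all genes. The 4 genes of zygonema were Dmrt1, Dmrtb1, Sohlh2 and Zbtb16, and 26.5% of all genes likewise had a zygonema call without one in leptonema. At 3 of them, all but Dmrtb1, early pachynema had no H3K9ac call, as at 7.97% of all genes. Zbtb16 had its zygonema H3K9ac peak without an H3K4me3 call in either zygonema list, as had 4.57% of all genes.

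**Figure D1:**
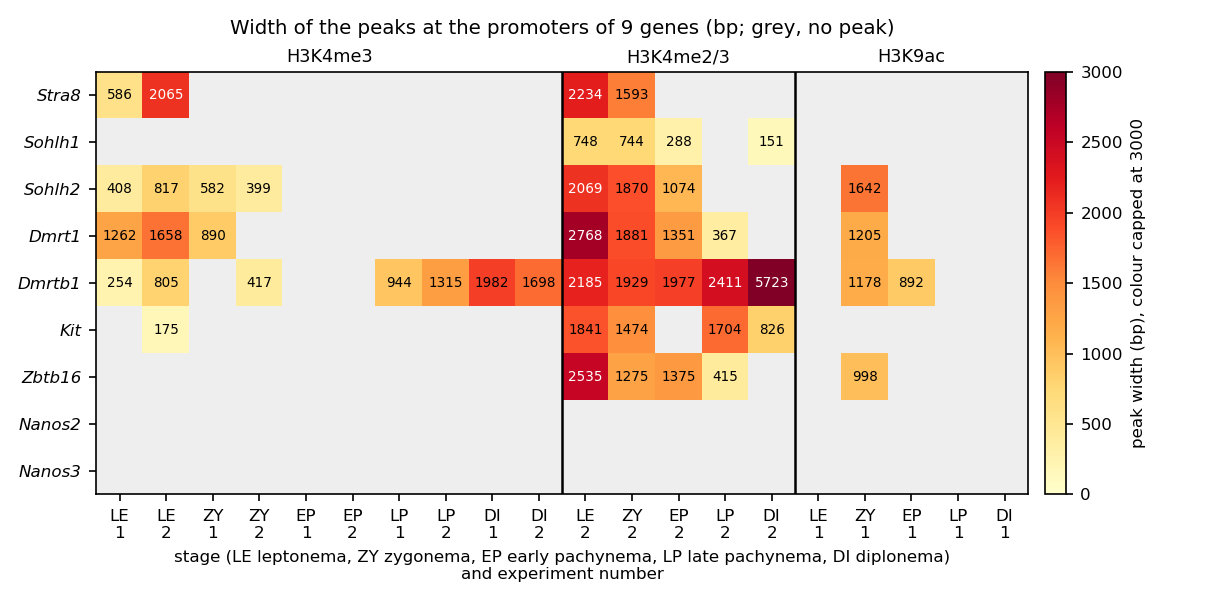
Width in bp of the widest peak at the promoter of each of the 9 genes (rows) in each of the 20 lists (columns, by antibody, stage and experiment number), with grey cells where no peak was called. H3K4me3 calls end at zygonema or before for 4 genes, Dmrtb1 is called again from late pachynema, and Nanos2 and Nanos3 have no peak in any list.

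The stage of the last H3K4me3 call separated the genes. For Stra8 and Kit it was leptonema, a stage that held the last call of 4.23% of all genes when a call in either library counted. For Dmrt1 and Sohlh2 it was zygonema (2.28% of all genes) and for Dmrtb1 diplonema (46.1%). No gene of the 9 had its last call at early or late pachynema (0.83% and 0.709% of all genes), and Sohlh1, Zbtb16, Nanos2 and Nanos3 had no H3K4me3 call, as had 45.9% of all genes. A call in both leptonema libraries with none in the 6 libraries of the 3 later stages was held by 3 of the 9 genes, Stra8, Dmrt1 and Sohlh2, and by 2.19% of all genes. With at least 1 call in leptonema or zygonema and none later, Kit joined them, 4 of 9 beside 6.51% of all genes. Of the 8 Sertoli cell markers, Sox9, Wt1 and Gata4 had this pattern too. So had Lhx1, Eomes and Lin28a of 16 other spermatogonial genes, Dmc1 of 12 early prophase genes and Tssk6 of 6 round spermatid markers. The lists of the 3 later stages held 4883 to 12071 peaks and those of leptonema and zygonema 9528 to 15699, and the part of list length in this difference was not tested beyond the setting with equal list sizes, under which Stra8 and Dmrt1 kept the pattern and Sohlh2 had no call.

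Stra8, whose product is needed for the last DNA replication before meiosis and for entry into prophase, lies on the plus strand at chr6:34920163-34939344 (mm10). Its 4 protein-coding transcripts start within 847 bp of each other. The H3K4me3 peak was 586 bp wide in leptonema of experiment 1 and 2065 bp wide in leptonema of experiment 2, and the other 8 H3K4me3 lists had none, a pattern of calls that 1% of all genes had. The leptonema and other libraries did not overlap, as for 12.2% of the genes tested, although the 2 leptonema widths themselves lay far apart (mean 1326 ± 1046 bp, SD, n = 2). Leptonema exceeded the other stages by a mean of 1326 bp (exact two-sided permutation of the 10 libraries in 45 ways, p = 0.0222, the smallest this design allows, Benjamini-Hochberg adjusted p = 0.211 over 11215 genes). With zygonema in the first group the difference was 663 bp (exact permutation in 210 ways, p = 0.133, adjusted p = 0.423), and it was 195 bp without leptonema of experiment 2 and 688 bp without that of experiment 1. Stra8 entered the tests only through its 2 leptonema calls, so these differences and p-values restate those calls. The leptonema nuclei were themselves sorted on the STRA8 protein.

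H3K4me2/3 was called at Stra8 in leptonema (2234 bp) and zygonema (1593 bp) and at none of the 3 later stages. Zygonema was the last stage with H3K4me2/3 for 4.17% of all genes. The call thus outlasted that of H3K4me3, which had no peak in either zygonema list. The zygonema H3K4me2/3 list was longer, with 29114 peaks and calls at 59.4% of all genes. The H3K4me3 lists of experiments 1 and 2 had 15699 and 11314 peaks and calls at 36.2% and 35.3%. The part of list length in this difference was not tested. H3K9ac was not called in the window in any stage. A zygonema H3K9ac peak of 413 bp lay in the first part of the gene, in an intron, 1376 to 1788 bp downstream of the first start, and it counted as a call when the window was 1000 bp on either side.

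The peaks at Stra8 were not centred on the starts. In leptonema of experiment 1 the peak ran from 1280 to 1865 bp downstream of the first start and touched the window of the last start only at its edge, and with windows of 250 bp it was not counted. In experiment 2 it ran from 53 bp upstream to 2011 bp downstream and covered the starts. All 4 peaks called at Stra8, 2 for H3K4me3 and 2 for H3K4me2/3, shared chr6:34921443-34922028, 586 bp from 433 bp past the last start on. These bases held 39 CpGs and were repetitive in sequence: 71.5% of them equalled the base 31 bp further on, and 1 unit of 31 bases with 3 CpGs occurred there in 7 exact copies. In the promoter stretches of Kit, Dmrtb1, Sohlh1, Sohlh2, Nanos2 and Nanos3, the best agreement at any step from 10 to 60 bp was 32.1% to 42.4%. How reads from such copies were placed was not tested. The middle 250 bases of the shared stretch (chr6:34921611-34921860, plus strand, GRCm38.p6, the assembly of mm10) lie in an intron. They and the unit are shown because every Stra8 call covers them, with each CpG in capitals and all other bases in lower case.
Stra8 unit of 31 bases: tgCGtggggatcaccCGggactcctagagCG
Stra8 intron, shared by 4 peaks: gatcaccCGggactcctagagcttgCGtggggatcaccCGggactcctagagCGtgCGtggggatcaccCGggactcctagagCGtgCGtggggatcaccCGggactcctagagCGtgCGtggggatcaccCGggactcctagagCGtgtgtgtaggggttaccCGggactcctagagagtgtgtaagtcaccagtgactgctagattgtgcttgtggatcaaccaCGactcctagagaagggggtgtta

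The 250 bases before the RefSeq start of Stra8 (chr6:34920698-34920947) held 5 CpGs, where the median over 31365 RefSeq promoters was 6. All of the stretch lies in annotated untranslated exon sequence of Stra8 transcripts, and it is not printed. It held the letters AGGTCA, a half-site of retinoic acid receptors and other nuclear receptors, in 2 places over both strands. At least 1 such match was present in 14.1% of the promoters and 2 or more in 1.38%. It held no E-box (CANNTG), which 66.1% of promoters hold. A match to letters is not a binding site.

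Upstream of Stra8, peaks stood at the promoter of Wdr91 in 3 leptonema and zygonema H3K4me3 lists, in 1 of early pachynema, in all 5 H3K4me2/3 lists and in 2 H3K9ac lists. These neighbouring peaks lay between 8544 and 10084 bp from the first Stra8 start and entered none of the Stra8 calls.

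Sohlh1 and Sohlh2 encode basic helix-loop-helix factors that work as a pair in differentiating spermatogonia. Their promoters differed. Sohlh2 (chr3:55182028-55209957, plus strand, 1 start) was called for H3K4me3 in the 2 leptonema and the 2 zygonema libraries but not in the 6 of later stages, a pattern of 0.516% of all genes. Its widths were 408 and 817 bp in leptonema and 582 and 399 bp in zygonema. The early and later libraries did not overlap, as for 5.47% of the 11215 genes tested. The mean difference was 552 bp (exact permutation test, p = 0.00476, the lowest value that 210 ways allow, adjusted p = 0.115). Leptonema alone exceeded the other 4 stages by 490 bp (exact permutation test, p = 0.0444, adjusted p = 0.280), with overlap between the groups. Sohlh2 entered the tests only through its leptonema and zygonema calls, so these differences restate those calls. These peaks stood at percentiles 29.4 and 60.5 of width in the leptonema lists and 40.8 and 32.1 in the zygonema lists. When every list was reduced to its 4883 widest peaks, Sohlh2 had no H3K4me3 call left.

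Sohlh2 carried H3K4me2/3 peaks of 2069, 1870 and 1074 bp in leptonema, zygonema and early pachynema and none later. Early pachynema was the last stage with H3K4me2/3 for 2.5% of all genes. Its zygonema H3K9ac peak of 1642 bp was the widest H3K9ac peak at the 9 promoters and reached the 92.4th percentile of width in its list. The H3K4me3 peaks began between 153 bp upstream and 153 bp downstream of the start and ended 413 to 663 bp downstream of it.

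Sohlh1 (chr2:25842995-25847248, minus strand, 1 start) had no H3K4me3 and no H3K9ac call. Its H3K4me2/3 peaks were 748, 744 and 288 bp wide in leptonema, zygonema and early pachynema. None was called in late pachynema, and diplonema had 1 of 151 bp, narrower than nearly all others of its list (percentile 1.79). All 4 covered the start. A zygonema H3K4me3 peak of experiment 1 stood 3523 to 3819 bp upstream, close to an H3K4me2/3 peak of the same stage.

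The bases before the starts of this pair are shown because the genes differed in H3K4me3 calls. Of the 4 H3K4me3 peaks of Sohlh2, that of leptonema in experiment 2 reached into the stretch shown, and the others began 6, 38 and 153 bp past the start. They are RefSeq promoter sequences of GRCm38.p6, at chr2:25847249-25847498 on the minus strand and chr3:55181794-55182027 on the plus strand, with CpGs in capitals.
Sohlh1: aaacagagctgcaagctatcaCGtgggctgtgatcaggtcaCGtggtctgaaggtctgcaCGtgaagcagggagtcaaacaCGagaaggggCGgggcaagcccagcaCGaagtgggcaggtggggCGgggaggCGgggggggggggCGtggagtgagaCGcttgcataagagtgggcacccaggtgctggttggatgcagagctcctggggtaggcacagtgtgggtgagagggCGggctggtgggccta
Sohlh2: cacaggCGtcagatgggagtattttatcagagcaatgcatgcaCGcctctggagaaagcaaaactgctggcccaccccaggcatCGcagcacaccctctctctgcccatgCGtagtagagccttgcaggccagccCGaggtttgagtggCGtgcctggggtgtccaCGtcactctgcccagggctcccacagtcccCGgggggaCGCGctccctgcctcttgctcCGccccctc
The Sohlh1 stretch of 250 bases and the Sohlh2 stretch of 234 bases held 11 CpGs each, and the full 250 bases of the Sohlh2 entry, which run past the start, held 14. Sohlh1 had 5 E-boxes (CANNTG, both strands), the letters to which basic helix-loop-helix factors bind, and Sohlh2 had 1, where the median over all RefSeq promoters was 1. The AGGTCA letters occurred in 1 place at Sohlh1 and in none at Sohlh2. Over the whole window of 1001 bp, Sohlh1 had 29 CpGs and Sohlh2 44.

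Dmrt1 and Dmrtb1 belong to the family of DM-domain transcription factors. DMRT1 keeps spermatogonia in mitosis, and DMRTB1, also named DMRT6, acts as they turn to meiosis. At Dmrt1 (chr19:25505618-25604329, plus strand, 2 starts), the H3K4me3 peak was 1262 and 1658 bp wide in leptonema and 890 bp wide in zygonema of experiment 1. It was not called in the other 7 lists. In zygonema of experiment 2, a peak of 328 bp lay 1078 to 1405 bp downstream of the first start, outside the window, and it was counted when the window was 1000 bp on either side.

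Both leptonema libraries stood above all 8 others at Dmrt1, as at Stra8. The difference was 1349 bp (exact permutation test, p = 0.0222, adjusted p = 0.211). Leptonema and zygonema exceeded the later stages by 953 bp (exact permutation test, p = 0.0333, adjusted p = 0.231), where the 1 zygonema library without a call overlapped the later ones. Dmrt1 entered the tests only through its leptonema and zygonema calls, so these differences restate those calls. H3K4me2/3 peaks at Dmrt1 were 2768, 1881, 1351 and 367 bp wide from leptonema to late pachynema, and diplonema had none. Late pachynema, the last stage with H3K4me2/3 at Dmrt1 and Zbtb16, was so for 3.4% of all genes, while none of the 9 genes had leptonema as its last (3.81%). The only H3K9ac call at Dmrt1 was in zygonema, 1205 bp wide. As at Stra8, the narrower peaks lay inside the gene: those of leptonema in experiment 1 and of zygonema began 366 and 443 bp past the start.

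Dmrtb1 (chr4:107676290-107684230, minus strand) had a course of its own among the 9 genes. In leptonema, its H3K4me3 peak was 254 and 805 bp wide, and in zygonema it was absent in experiment 1 and 417 bp wide in experiment 2. Neither early pachynema list had a peak. The call returned in late pachynema at 944 and 1315 bp and stood at 1982 and 1698 bp in diplonema. A call in both late pachynema and both diplonema libraries without any in early pachynema was held by 0.637% of all genes. With the early pachynema libraries at 0, the groups of the tests overlapped. Leptonema with zygonema had a mean of 369 bp and the later stages one of 990 bp, with a difference of -620.8 bp (exact permutation test, p = 0.219, adjusted p = 0.555). For leptonema against the other stages p was 0.733 (exact permutation test, adjusted p = 0.982).

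H3K4me2/3 did not lapse at Dmrtb1 in early pachynema. It was called at all 5 stages, as at 47.8% of all genes, with widths of 2185, 1929, 1977 and 2411 bp up to late pachynema and 5723 bp in diplonema. The diplonema peak was at the 99.2nd percentile of its list and ran from 3037 bp upstream of the first start to 2685 bp downstream. In 3 earlier H3K4me2/3 lists a separate peak stood upstream, within 1324 to 3154 bp of that start, with 1831 bp in leptonema and 1458 bp in zygonema, and the leptonema H3K4me3 list of experiment 2 had one of 1507 bp there. H3K9ac was called in zygonema (1178 bp) and early pachynema (892 bp), the stage in which H3K4me3 was not called. Dmrtb1 was the only gene of the 9 with more than 1 H3K9ac call.

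The protein-coding transcripts of Dmrtb1 start 650 bp apart, and the narrower peaks lay toward the downstream one. The narrow leptonema peak of experiment 1 spanned 406 to 659 bp downstream of the first start and reached the other start at 107683580. RefSeq lists promoters for both, and they are shown because their base composition differs. The downstream one is at chr4:107683590-107683839, in coding sequence of the longer transcript, and the upstream one at chr4:107684231-107684480, both on the minus strand of GRCm38.p6 with CpGs in capitals.
Dmrtb1, downstream start: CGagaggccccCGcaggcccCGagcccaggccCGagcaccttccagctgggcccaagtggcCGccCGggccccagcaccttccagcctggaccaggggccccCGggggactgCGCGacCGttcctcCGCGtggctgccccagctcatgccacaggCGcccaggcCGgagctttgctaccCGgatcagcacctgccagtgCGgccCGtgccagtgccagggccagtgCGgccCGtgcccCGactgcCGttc
Dmrtb1, upstream start: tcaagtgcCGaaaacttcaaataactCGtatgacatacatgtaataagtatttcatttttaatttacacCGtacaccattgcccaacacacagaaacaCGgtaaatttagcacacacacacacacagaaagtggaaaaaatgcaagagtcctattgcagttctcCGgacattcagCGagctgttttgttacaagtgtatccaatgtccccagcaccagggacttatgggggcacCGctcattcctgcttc
The downstream stretch held 21 CpGs (percentile 84.8 among RefSeq promoters) and the upstream one 7 (percentile 56.5).

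**Figure D2:**
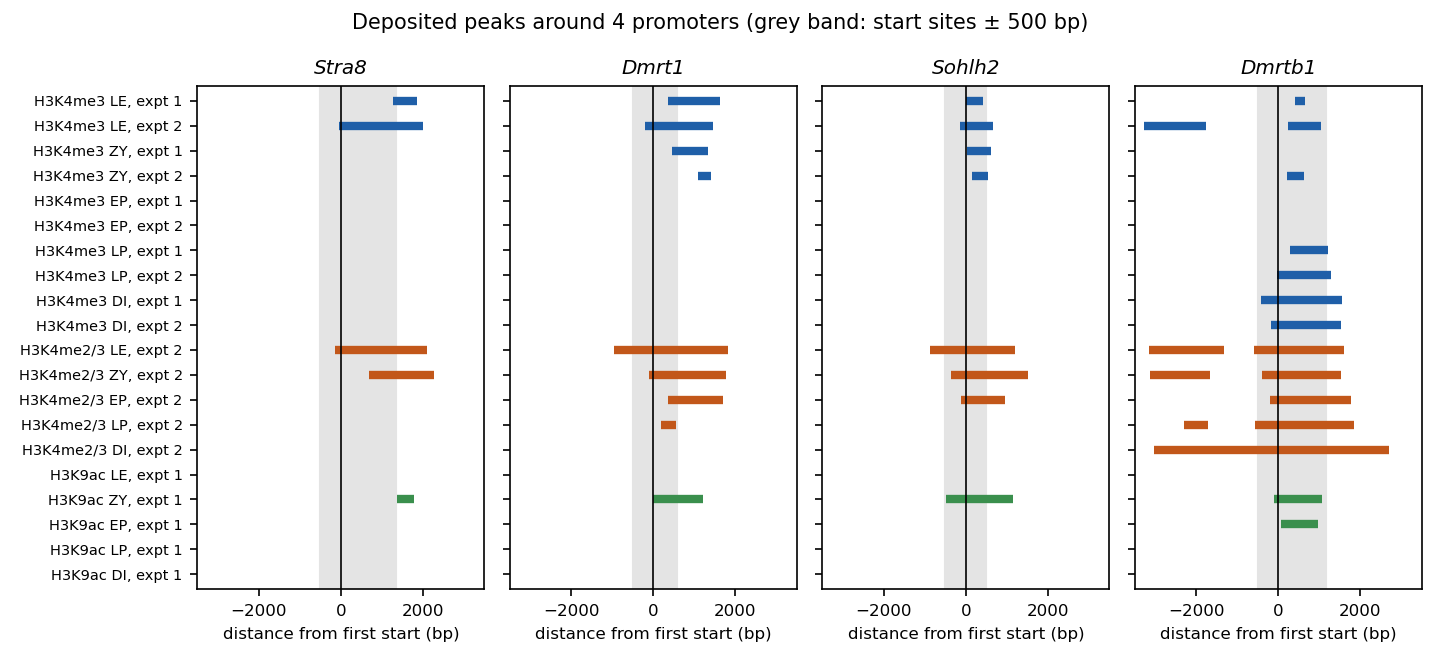
Deposited peaks around the first start of Stra8, Dmrt1, Sohlh2 and Dmrtb1, drawn in the direction of transcription (x axis, distance in bp; rows, the 20 lists by antibody, stage and experiment; grey band, the start sites with 500 bp on either side). The Stra8 and Dmrt1 peaks extend mostly downstream of the start, and the Dmrtb1 H3K4me2/3 peak of diplonema spans 5723 bp.

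Kit encodes the receptor for stem cell factor and marks differentiating spermatogonia (chr5:75574916-75656722, plus strand, 2 protein-coding starts). Its H3K4me3 call rested on 1 library: a peak of 175 bp in leptonema of experiment 2, at percentile 5.86 of its list, and none in the other 9. That library also held the Sertoli marker peaks given above. It gave the wider of the 2 leptonema H3K4me3 peaks at Stra8, Sohlh2, Dmrt1 and Dmrtb1 as well. At Kit, leptonema with zygonema differed from the later stages by 43.8 bp (exact permutation test, p = 0.4, adjusted p = 0.667). With the H3K4me2/3 antibody, Kit had peaks of 1841 bp in leptonema, 1474 bp in zygonema, 1704 bp in late pachynema and 826 bp in diplonema, and none in early pachynema. The diplonema peak lay 361 to 1186 bp downstream and did not cover a start. No H3K9ac peak was called at the promoter.

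Peaks away from the promoter were more regular at Kit. A region upstream, between 4325 and 6465 bp from the first start, had a peak in all 5 H3K4me2/3 lists, with widths of 922, 1084, 1298, 1780 and 2077 bp from leptonema to diplonema. There H3K4me3 was called in both diplonema libraries, at 571 and 874 bp, and in leptonema of experiment 2, at 250 bp, and H3K9ac in zygonema. In the introns, peaks were called at 2 places, from 59156 to 59946 bp and from 66935 to 67859 bp downstream of the first start, in leptonema and zygonema lists and in none of the later stages. The more distant one was 270 and 348 bp wide for H3K4me3 in the 2 leptonema libraries and 581 bp wide in zygonema of experiment 1. Zygonema H3K9ac peaks of 509 and 383 bp stood at the same 2 places.

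Zbtb16 encodes PLZF, a zinc finger factor that maintains spermatogonial stem cells (chr9:48654297-48836222, minus strand, 2 starts). It had no H3K4me3 call at its promoter in any of the 10 lists. H3K4me2/3 was called there in 4 stages, at 2535 bp in leptonema, 1275 bp in zygonema, 1375 bp in early pachynema and 415 bp in late pachynema, and not in diplonema. The leptonema peak was at the 96.3rd percentile of width in its list. Zygonema H3K9ac had a peak of 998 bp. Sohlh1 and Zbtb16 were the 2 of 9 genes with H3K4me2/3 calls and no H3K4me3 call, a pattern of 13.3% of all genes. Among genes with an H3K4me2/3 call in leptonema and none in diplonema (12.8% of all genes) were Stra8, Dmrt1, Sohlh2 and Zbtb16, 4 of the 9.

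In the introns of Zbtb16, zygonema peaks stood at 4 places without a peak in any leptonema list. From 142751 to 143883 bp downstream of the first start, H3K4me3 of experiment 1 (1031 bp), H3K4me2/3 (294 bp) and H3K9ac (861 bp) were all called. From 75153 to 75683 bp downstream, H3K4me3 of experiment 1 (359 bp) and H3K4me2/3 (531 bp) were called. The other places had H3K9ac peaks alone, 364 bp wide from 29401 bp and 359 bp wide from 135948 bp downstream. A peak over the last exon appeared for H3K4me2/3 in late pachynema (639 bp) and diplonema (1443 bp).

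Nanos2 and Nanos3 encode RNA-binding proteins of stem and undifferentiated spermatogonia. Neither had a promoter peak in any of the 20 lists, which held for 2 of the 9 genes and 32.5% of all genes. Nanos2 (chr7:18987400-18988962, plus strand) had neighbours with peaks. Between 2578 and 8236 bp downstream of its start, H3K4me2/3 peaks of all 5 stages stood at the promoter of Mypop, and H3K4me3 peaks of leptonema experiment 2, late pachynema and diplonema stood there too. Nanos3 (chr8:84173731-84185217, minus strand) had a peak near its 3′ end, 2514 to 3918 bp downstream of the protein-coding start. It was called in both leptonema and both zygonema H3K4me3 libraries, at 582, 725, 925 and 859 bp, in H3K4me2/3 of the same 2 stages, at 723 and 1405 bp, and in zygonema H3K9ac, at 1063 bp. None of the lists of the 3 later stages had it. From 6579 to 7932 bp upstream of that start, in an intron of a longer transcript, H3K4me2/3 was called at all 5 stages, with widths of 582 to 1258 bp. H3K4me3 was called there in both leptonema libraries, at 151 and 417 bp, and in late pachynema and diplonema of experiment 2, at 476 and 642 bp.

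The bases before these 2 starts are shown because no mark was called there. They are RefSeq sequences of GRCm38.p6, at chr7:18987274-18987399 on the plus strand and chr8:84176553-84176802 on the minus strand, with CpGs in capitals.
Nanos2: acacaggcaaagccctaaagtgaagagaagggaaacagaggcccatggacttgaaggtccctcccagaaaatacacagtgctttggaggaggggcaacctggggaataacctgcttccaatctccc
Nanos3: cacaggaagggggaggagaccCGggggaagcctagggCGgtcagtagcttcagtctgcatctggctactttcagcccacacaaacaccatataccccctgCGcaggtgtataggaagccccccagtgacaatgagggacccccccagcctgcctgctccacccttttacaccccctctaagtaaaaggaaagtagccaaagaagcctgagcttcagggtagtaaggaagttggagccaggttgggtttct
The Nanos2 stretch held 0 CpGs and the Nanos3 stretch 3. At least 1 CpG was found in 92.3% of the 250-base RefSeq promoters.

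CpG number in the window of 1001 bp around the start, taken at the start with the most CpGs, ran from 9 at Nanos2 and 13 at Nanos3 through 29 at Sohlh1, 36 at Stra8, 44 at Sohlh2, 55 at Dmrtb1, 69 at Dmrt1 and 74 at Kit to 78 at Zbtb16. The median over all genes was 50. When all genes were split into 5 groups of similar size by this number, an H3K4me3 call in any list was found for 2.04% of genes with 0 to 12 CpGs, 19.4% with 13 to 36, 71.9% with 37 to 60, 84.7% with 61 to 83 and 94.2% with 84 or more. For H3K4me2/3 the shares were 4.34%, 47.8%, 95.0%, 94.5% and 97.2%. Stra8 and Sohlh2 thus carried H3K4me3 calls at moderate CpG numbers, while Zbtb16, in the group of 61 to 83, had none and Kit, in the same group, had 1. Across these 9 genes the CpG number did not order the H3K4me3 calls, which peaked at Dmrtb1 with 7 of 10 lists.

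**Figure D3:**
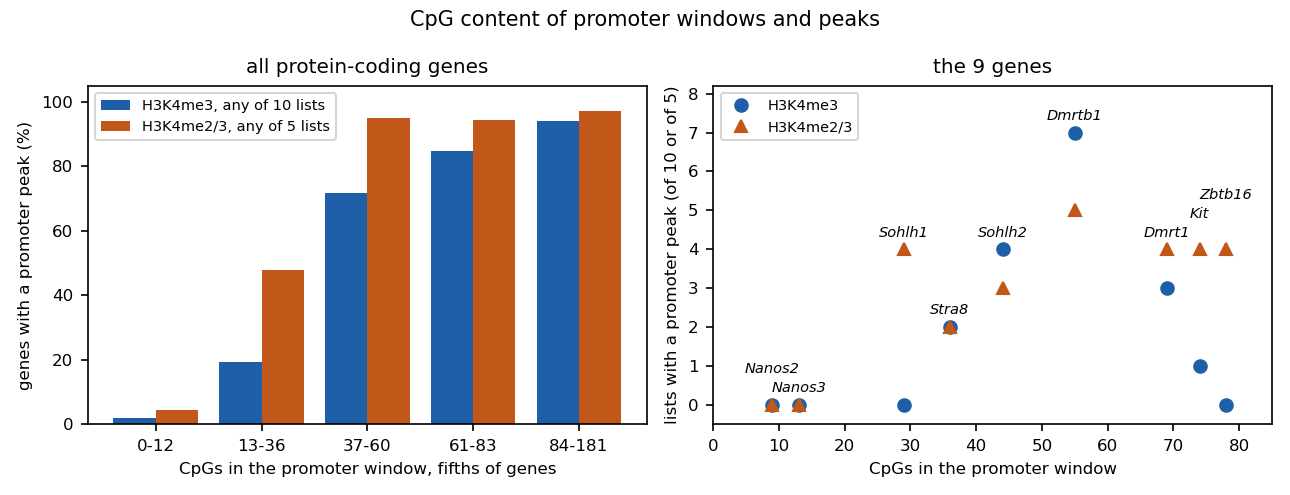
Left, share of all protein-coding genes with a promoter peak in any H3K4me3 list or any H3K4me2/3 list (y axis, percent), by 5 groups of genes ranked on the number of CpGs in the window of 1001 bp (x axis). Right, for each of the 9 genes, the number of H3K4me3 lists (of 10) and H3K4me2/3 lists (of 5) with a peak against its CpG number. Nanos2 and Nanos3 are the lowest in CpGs and have no peak, and Zbtb16 is the highest and has H3K4me2/3 peaks only.

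Over all 11215 genes with an H3K4me3 call in at least 1 list, no gene passed an adjusted p of 0.05 in either comparison of widths (exact permutation tests with Benjamini-Hochberg adjustment). At an unadjusted p under 0.05, 1643 genes were wider in leptonema and zygonema and 267 narrower, 14.7% and 2.38% of those tested, and the smallest adjusted p was 0.115. For leptonema against the other stages, 1749 were wider (15.6%) and 28 narrower (0.25%), with 0.211 as the smallest adjusted p. The median difference over all tested genes was 89.7 bp in the first comparison and 158 bp in the second, so that a positive difference at a gene stands against a positive one over all genes. No gene of the 9 had all its early widths below all later ones, a position of 1.1% of those tested. Of the 9 genes 5 entered these tests, and Sohlh2 and Dmrt1 in the first and Stra8, Dmrt1 and Sohlh2 in the second had unadjusted values under 0.05. Stra8 and Kit entered through leptonema calls alone, and Dmrt1 and Sohlh2 through leptonema and zygonema calls alone. Their differences restate those calls and are no separate evidence. The 2 libraries of a stage alone cannot reach this threshold against those of another, since the smallest p of 2 against 2 is 0.333.

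**Figure D4:**
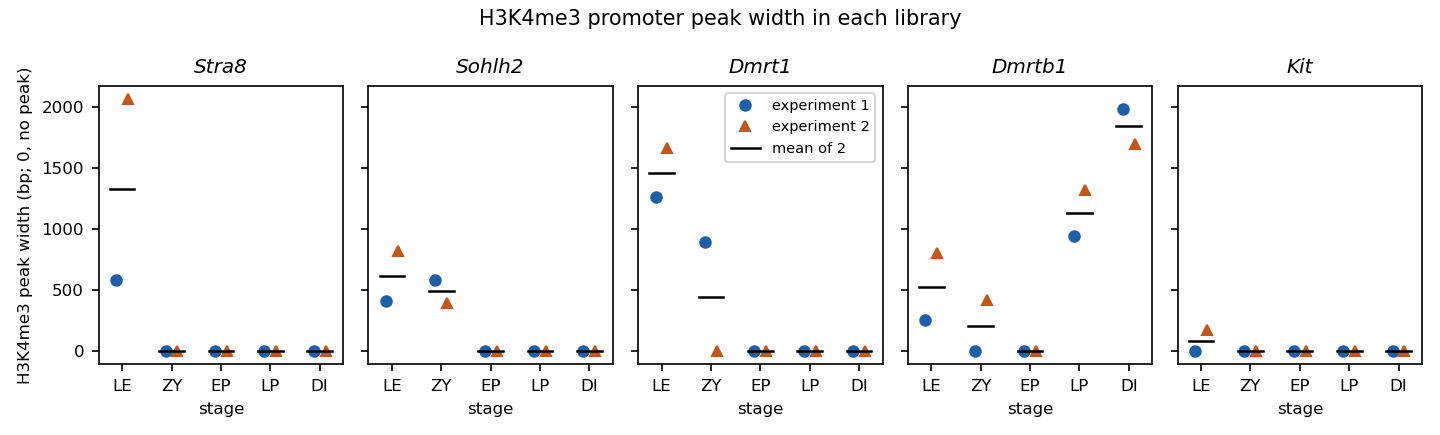
H3K4me3 promoter peak width (y axis, bp, 0 where no peak was called) by stage (x axis) for the 5 genes with a call, with circles for experiment 1, triangles for experiment 2 and a bar at the mean of the 2 libraries. Stra8, Sohlh2, Dmrt1 and Kit are at 0 from early pachynema on, and Dmrtb1 reaches 1982 and 1698 bp in diplonema.

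Other gene groups were set beside the 9 genes. Among 16 other genes of undifferentiated spermatogonia, an H3K4me3 call in both libraries was found for 3, 2, 2, 1 and 2 genes from leptonema to diplonema, and an H3K4me2/3 call for 15, 13, 5, 9 and 9. Gfra1 and Ret, which encode the subunits of the GDNF receptor, resembled Zbtb16 in having no H3K4me3 call, with H3K4me2/3 peaks of 2685 and 1045 bp in leptonema and of 1008 and 505 bp in zygonema. Gfra1 had a further one of 248 bp in diplonema. Id4, an inhibitor of basic helix-loop-helix factors, was instead called for H3K4me3 in all but zygonema of experiment 1, with 1493 and 2023 bp in diplonema. Bcl6b was called for H3K4me3 in late pachynema of experiment 2 (1021 bp) and in both diplonema libraries (1162 and 1587 bp), late like Dmrtb1 but without its leptonema call. Of 8 genes of this group that could be tested, Foxo1 and Etv5 had an unadjusted p under 0.05 in both comparisons, both wider early, and none passed adjustment.

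Of 13 genes of retinoic acid synthesis, breakdown, binding and receptors, 6, 4, 3, 2 and 2 were called for H3K4me3 in both libraries from leptonema to diplonema. Aldh1a2, which makes retinoic acid, had a call in all 10 lists. Rarg, a retinoic acid receptor, was 911 and 1333 bp wide in leptonema, 443 bp wide in zygonema of experiment 2 and 762 bp wide in diplonema of experiment 2. Rara, another receptor, was called in both leptonema lists, at 464 and 505 bp, and in diplonema of experiment 2. Of 7 tested, Rdh10 was wider early at an unadjusted p under 0.05 in both comparisons and Rarg in that of leptonema alone, and none passed adjustment.

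Of the 12 early prophase genes, 11, 9, 7, 7 and 7 were called for H3K4me3 in both libraries from leptonema to diplonema, and all but 1 had H3K4me2/3 at all 5 stages. Dmc1, a recombinase at double-strand breaks, had the pattern of Sohlh2, with 934 and 1093 bp in leptonema, 622 and 181 bp in zygonema and no later call, though its H3K4me2/3 peaks lasted to diplonema. Gm4969, which encodes MEIOSIN, the partner of STRA8, was widest in leptonema (1045 and 2598 bp), with 399 to 422 bp in 3 later lists of experiment 2. Meioc, needed to stay in meiosis, was called in all 20 lists. Rec8, a meiotic cohesin subunit, had H3K4me2/3 and H3K9ac calls but none for H3K4me3, as Zbtb16 had. Of 6 round spermatid markers, Tssk6 and Spaca1 had H3K4me3 calls in all 4 lists of leptonema and zygonema, and the other 4 markers had none in the 10 lists. Tssk6 had no later call, the pattern of Sohlh2, and Spaca1 had 2 in the 6 later lists. Tssk6 and Spaca1 in the first comparison and Tssk6 in the second had an unadjusted p under 0.05 (exact permutation). Their peaks were wider early, and neither passed adjustment. Of 11 early prophase genes tested, Dazl, Sycp2 and Dmc1 in the first comparison and Gm4969, Dmc1 and Mei1 in the second had an unadjusted p under 0.05, all wider early, and none passed adjustment.

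**Figure D5:**
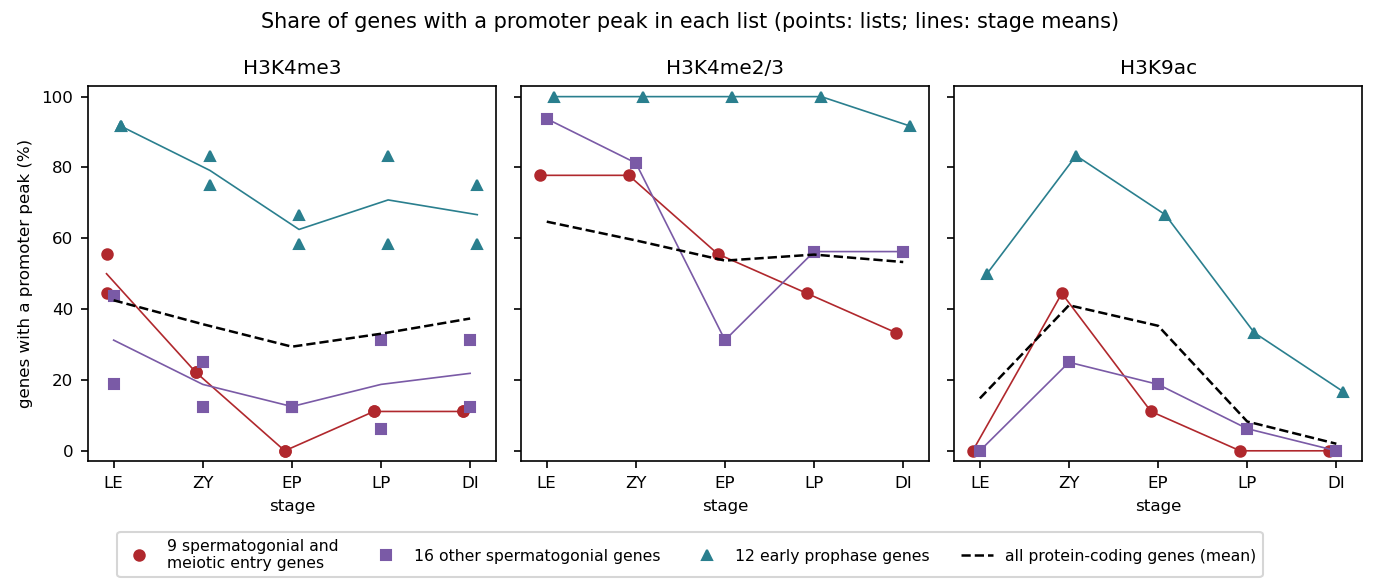
Share of genes with a promoter peak (y axis, percent) by stage (x axis) for the 9 genes, 16 other spermatogonial genes and 12 early prophase genes, in 3 panels by antibody. Points are single lists, solid lines stage means, and the dashed line the mean over all protein-coding genes. H3K4me3 is called at 4 and 5 of the 9 genes in the leptonema libraries and at none in early pachynema.

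Genes outside the 9 genes and outside these groups were ranked by the likeness of their widths over the 20 lists to a given gene. The measure was the mean absolute difference in width percentile, with 0 where no peak was called. Lists in which neither gene had a peak thus added 0 to it. For Stra8, called in 4 of the 20 lists, the nearest genes were Pdgfra, Pacsin3 and M1ap. Their mean differences were 1.60, 1.60 and 1.93 percentile points, and Pdgfra had the same calls in all 20 lists. For Dmrt1 they were Arhgef17, Setd7 and Psme2 (2.60, 5.07 and 6.02 points), and for Sohlh2 Tsc22d4, Lgr4 and Dennd2c (6.06, 6.75 and 6.78 points). For Dmrtb1, called in 14 lists, they were Rai14, Ubl5 and Txnip (9.43, 9.66 and 10.0 points).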

How the data were processed

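ChIP-Seq peak lists of 20 of 51 samples were used, and the other 31, without a list, were not used here. Reads were mapped by the authors with BWA mem (genome mm10), and MACS2 2.1.2 was run on each library in broad mode (q threshold 0.1) against input of the same stage. For H3K9ac, the control is not given in the sources used here. The deposited values are peak positions only, so depth and precision per sample are unknown and spike-in scaling does not enter. Whether blacklisted regions were removed from the lists is not stated.

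Calls, widths and tests were computed with Python 3.11.15, numpy 2.4.6 and scipy 1.17.1, and figures with matplotlib 3.10.9. The window was 500 bp on either side of GENCODE M21 protein-coding 5′ ends, with an overlap of 1 bp. Mean widths, 0 without a peak, were compared by two-sided exact permutation of the libraries, with Benjamini-Hochberg adjustment over 11215 genes and a threshold of 0.05. The tests were tested on simulated data with widths above 0 in every library, so genes with many widths of 0 were not covered. Sequences came from RefSeq promoters and the GRCm38.p6 genome. RefSeq promoters were matched for 7 of the 9 genes.

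Named genes were the 9 genes, those of the gene lists, and up to 3 genes outside both nearest in width to each of the 9 with 2 or more H3K4me3 calls. The members and lists were chosen with earlier results of these data known. The p-values set a difference against the spread between these libraries, within and between stages, which may be technical. They count the libraries of a stage as separate units and take no account of likeness between them. Alternatives were other windows and overlaps, equal list sizes, the wider peaks, all transcripts, other measures, a replicate block and leaving out each library.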

Additional observations from a re-analysis of the deposited data

How the results depend on the processing

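Counts of the 9 genes depended on the window and on peak width. Of the 4 genes called for H3K4me3 in both leptonema libraries, 2 remained in number with windows of 250 bp, 0 when 500 bp of overlap were required, 2 with equal list sizes (4883 widest peaks) and 1 among the wider peaks of each list. The count for zygonema, 1, became 2 with windows of 1000 bp, 0 with 500 bp of overlap, 0 with equal list sizes, 0 among the wider peaks and 3 with a call in either library, and it was 1 to 2 when 1 library was left out. The count of genes with both leptonema calls but no later one, 3, became 1 with windows of 250 bp (Sohlh2), 0 with 500 bp of overlap and 1 among the wider peaks (Dmrt1). The Stra8 peak of leptonema in experiment 1 had exactly the median width of its list, 586 bp. For H3K4me2/3, 500 bp of overlap gave 3, 2 and 1 genes at early pachynema, late pachynema and diplonema. Equal list sizes gave 4, 3, 1 and 1 from zygonema to diplonema, and the wider peaks 2 and 1 at the last 2 stages.

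No alternative gave an adjusted p under 0.05 for any gene. The smallest adjusted p lay between 0.0849 and 0.251 for leptonema with zygonema and between 0.182 and 0.915 for leptonema, where leaving out a leptonema library limits p to 0.111. Of the recomputed differences of the 5 genes tested in the first comparison, 90 kept their direction and side of the threshold, 5 became 0 and 0 turned. In the second, 89 kept both, 5 became 0 and that of Dmrtb1 turned, being 10.5 bp without leptonema experiment 1 and -540.5 bp without experiment 2 (exact permutation p = 1 and 0.778). The difference at Kit was 0 without leptonema experiment 2. The experiment numbers did not pair the libraries in a uniform way. Of 10 pairs' correlations of deviations from the stage means, 2 were over 0.1 (range -0.233 to 0.365). These were late pachynema with diplonema (0.365) and zygonema with early pachynema (0.152). Early pachynema had -0.233 with late pachynema and -0.182 with diplonema. A shared effect of experiment was not tested beyond the replicate block. With the replicate block, 0 genes passed adjustment in either comparison, the smallest adjusted p values were 0.175 and 0.27, and 1706 and 1659 genes had an unadjusted p under 0.05 (exact permutation).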
